A study of Mus musculus with 59 samples.

Results

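The 34 genes described here mark the cells of brain blood vessels, and they were taken as a named list from all 18088 genes listed for in the mouse prefrontal cortex. Of the 34, 24 mark endothelial cells, 7 mark pericytes and 3 mark vascular smooth muscle. All 34 were found by symbol, and all 34 had a mean of 10 or more normalized counts over the 59 libraries, as did 16546 genes in all. A normalized count is a read count divided by a size factor of its library.

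The study sequenced cortical messenger RNA of C57BL/6J pups at postnatal day 25, after 3 weeks (days 3 to 24) of drug reaching the pups through the mother's milk. Pups were labelled wild-type (WT) or heterozygous (HT) for Myt1l, a neuronal transcription factor, and were exposed to vehicle, to lithium, used to steady mood, or to fluoxetine, which blocks the uptake of serotonin. The 6 combinations of label and drug held 5 females and 5 males each, except WT fluoxetine with 4 females. Dams and litters are not named in the labels, so p-values measure the spread between these libraries. Which part of Myt1l is altered in the HT pups, and whether dams carried the allele, is not given in the sources used here.

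Endothelial cells line the capillaries of the brain and form the blood-brain barrier: tight junctions seal the gaps between them, and transporters carry sugars, lipids and anions across. Their growth and stability depend on receptors for vascular endothelial growth factors and angiopoietins. Pericytes sit on the capillary wall and keep the barrier closed, while smooth muscle rings the larger arteries and sets their width. A bulk library mixes all cells of the tissue, so fewer vascular cells and less RNA per vascular cell cannot be told apart in any value below.

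Recovered reads ran from 25088446 to 35858365 per library. Myt1l itself had a mean of 8030 ± 938 normalized counts in HT vehicle pups (SD, n = 10) and 7078 ± 255 in WT vehicle pups (n = 10), so its level does not show the loss of a copy, and HT here always means the label. The difference was 0.17 on the log2 scale (SE 0.0629, limma adjusted p = 0.414). The libraries were divided: mt-Atp6, a mitochondrial transcript, ran from 10202 to 20887 in the 14 of HT fluoxetine pups and of WT females given fluoxetine, and from 36054 to 70728 in the 45 others, and the labels give no batch. HT vehicle female 3 and HT vehicle male 3 had the highest levels of endothelial, pericyte, astrocyte, microglial and oligodendrocyte genes of all libraries, and they belong to the group against which both drugs were compared in HT pups. Both were also among the 5 libraries highest in striatal genes (2.36 and 1.95) and had the highest mitochondrial shares of reads, 9.79% and 11.2%.

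Levels between genes were compared per kilobase of exon in WT vehicle pups (mean ± SD, n = 10). Itm2a, a membrane protein of brain endothelium, led the endothelial genes with 1022 ± 94.1 normalized counts per kilobase, followed by the glucose transporter Slc2a1 at 946 ± 127 and the tight junction protein Cldn5 at 747 ± 51.3. Those of Itm2a and Slc2a1 do not differ beyond their spread. The pericyte regulator Rgs5, a brake on G-protein signalling, had 948 ± 83.0 and the matrix protein Vtn 816 ± 69.8, whereas the potassium channel subunit Abcc9 had 37.1 ± 2.74. Smooth muscle actin, Acta2, had 138 ± 30.5, the actin-binding Tagln 81.2 ± 13.8 and smooth muscle myosin, Myh11, 34.7 ± 5.41. The lowest of the 34 was the barrier transcription factor Foxq1, at 17.3 ± 2.60. The defining markers of all 3 cell classes were thus present in the tissue, and none was at 0 in any library.

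The level of a class in a library was taken as the mean of its genes' log2 values after standardizing each gene over the 59 libraries. Endothelial levels spanned -0.36 to 0.28 in WT vehicle pups (median -0.11) and -0.37 to 2.35 in HT vehicle pups (median 0.34). The HT vehicle group was the widest of the 6 (SD 1.04 against 0.21 in WT vehicle). Its top values, 2.35 and 2.30, came from HT vehicle female 3 and male 3.

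**Figure D1:**
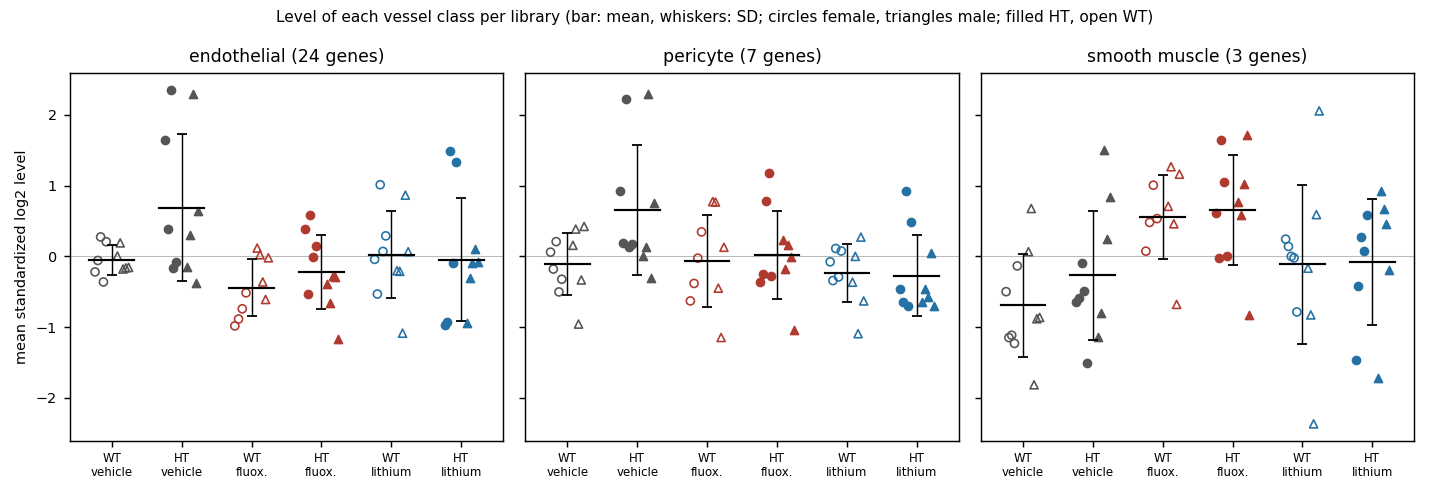
Mean standardized log2 level of the 24 endothelial, 7 pericyte and 3 smooth muscle genes in each of the 59 libraries (y axis) by label and drug (x axis), with the mean and SD of each group. HT vehicle pups hold the highest endothelial levels (2.35 and 2.30), and the smooth muscle means are highest in both fluoxetine groups.

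RefSeq promoter windows (250 bases before to 50 from the start site, build GRCm38.p6) were given for 21 of the 34 genes. Of the 6 endothelial genes that fell with lithium in HT pups, described below, 5 had one, and 4 of these windows are shown to compare their letters. Capitals mark GGAAG, which holds the shorter GGAA core of ETS factor sites, or its reverse complement CTTCC in Tie1 (chr4:118489800-118490099, minus strand) and Kdr (chr5:75978406-75978705, minus strand). The Cldn5 window (chr16:18776597-18776896, plus strand) was searched for the same letters, held none and has no capitals. In Tek (chr4:94739039-94739338, plus strand) capitals mark ACAAAG, a SOX-like motif, or CTTTGT. Each window reads 5′ to 3′ on the strand of its gene.
Tie1: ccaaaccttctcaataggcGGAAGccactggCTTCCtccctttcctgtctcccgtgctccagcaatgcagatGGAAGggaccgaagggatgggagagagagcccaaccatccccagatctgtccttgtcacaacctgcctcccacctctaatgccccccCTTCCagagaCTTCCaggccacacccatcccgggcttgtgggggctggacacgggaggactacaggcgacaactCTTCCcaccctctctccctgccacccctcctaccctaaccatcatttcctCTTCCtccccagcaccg
Kdr: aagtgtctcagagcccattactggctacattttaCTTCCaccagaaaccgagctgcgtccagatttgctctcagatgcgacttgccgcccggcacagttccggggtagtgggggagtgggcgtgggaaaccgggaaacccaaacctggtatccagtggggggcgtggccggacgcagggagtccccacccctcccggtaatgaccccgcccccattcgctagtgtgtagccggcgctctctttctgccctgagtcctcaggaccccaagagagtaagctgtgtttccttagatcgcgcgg
Cldn5: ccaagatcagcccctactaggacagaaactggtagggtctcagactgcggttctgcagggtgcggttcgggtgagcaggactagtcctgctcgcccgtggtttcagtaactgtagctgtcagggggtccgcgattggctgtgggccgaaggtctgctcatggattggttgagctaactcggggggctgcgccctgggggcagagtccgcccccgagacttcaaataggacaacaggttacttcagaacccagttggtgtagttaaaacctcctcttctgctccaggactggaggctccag
Tek: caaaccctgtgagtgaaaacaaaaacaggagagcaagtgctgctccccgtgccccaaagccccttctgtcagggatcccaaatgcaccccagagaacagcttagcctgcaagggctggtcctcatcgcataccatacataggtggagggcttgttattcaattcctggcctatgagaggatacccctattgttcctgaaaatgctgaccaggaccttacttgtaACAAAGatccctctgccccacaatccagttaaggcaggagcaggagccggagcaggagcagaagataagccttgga
The Tie1 window held GGAAG 7 times and the Kdr window once, at -216 from the start site, while those of Cldn5 and Tek held GGAAG at no place. The shorter GGAA was not searched for, so these counts do not show which windows lack an ETS site. Itm2a, whose window is not printed, held GGAAG 3 times. ACAAAG was at -26 in Tek alone among the 5. All 32851 promoter windows of that length were searched on both strands. Counted by gene, GGAAG stood in 73.85% of the 27025 genes with a window and in 11 of the 15 endothelial ones. ACAAAG stood in 21.02% and in 4 of 15. The genes that fell together with lithium therefore share neither run of letters in these windows. The CArG box of smooth muscle genes was searched for only in its strict form, CCWWWWWWGG, where W is A or T. That form was in 1.63% of all windows and in none of the member windows, of which Acta2 was the smooth muscle one. Looser forms were not searched for, so this does not show that any window, that of Acta2 included, lacks a CArG box.

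The first comparison was of lithium with vehicle in HT pups. Here 7 of the 34 genes were lower than in HT vehicle pups and none was higher by limma with Benjamini-Hochberg adjustment over all tested genes at 0.05, the rule for calling a gene throughout. Over all genes 2.84% were called, 1.57% lower and 1.27% higher. In none of the 34 did the groups fail to overlap, against 0.109% of all genes. The 7 were the receptors Tek, Kdr and Tie1, the junction proteins Cldn5 and Cdh5, Itm2a, and of the pericyte genes Rgs5.

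Tek, the receptor for angiopoietins, ran from 366 to 591 normalized counts in HT lithium pups (median 461, n = 10) and from 511 to 833 in HT vehicle pups (median 587, n = 10). The ranges overlapped, and all 10 lithium libraries lay below the vehicle mean, which in counts of libraries is always the mean of log2 values. Tek fell by 0.41 (SE 0.0758, adjusted p = 0.00103), to 0.755 of the vehicle level. WT vehicle pups stood between, at 475 to 597 (median 518).

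Kdr, the main receptor for vascular endothelial growth factor, ran from 413 to 784 with lithium (median 659) and from 721 to 1327 with vehicle (median 823). Again all 10 lithium libraries were below the vehicle mean while the ranges met. Kdr fell by 0.44 (SE 0.0915, adjusted p = 0.00401). Tie1, the orphan partner of Tek, had 285 to 533 against 417 to 774 and fell by 0.40 (SE 0.102, adjusted p = 0.0220), with 9 of 10 below.

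Cldn5, the claudin that seals the barrier, ran from 737 to 1272 with lithium and 983 to 1785 with vehicle and fell by 0.36 (SE 0.103, adjusted p = 0.0394). The adherens junction cadherin Cdh5 ran from 392 to 707 against 492 to 822 and fell by 0.35 (SE 0.101, adjusted p = 0.0420), a call that held in 8 of 20 fits without 1 library. In both genes 8 of 10 lithium libraries lay below the vehicle mean. Itm2a had 1392 to 2065 against 1714 to 2344 and fell by 0.29 (SE 0.0704, adjusted p = 0.0178), and the groups overlapped. Rgs5 had 3384 to 5502 against 4165 to 7005 and fell by 0.29 (SE 0.0787, adjusted p = 0.0315), with 9 of 10 below.

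The rest of the junction and adhesion genes had values below 0 that were not called, from -0.23 for the platelet adhesion molecule Pecam1 to -0.15 for occludin, Ocln. The transporters were spread about 0: Slco1a4, which carries organic anions, at -0.19, the drug pump Abcb1a at -0.07, Slc2a1 at 0.01 and the lipid transporter Mfsd2a at 0.07. The sprouting guidance receptor Robo4 was at -0.16, the nitric oxide synthase Nos3 at -0.19 and the transcription factor Sox17 at 0.05. Sox18, a relative of Sox17, stood at 0.37 (SE 0.128, adjusted p = 0.103), higher than the vehicle mean in 8 of 10 libraries. Over the 24 endothelial genes 20 were below 0, with a median of -0.18, beside a median of 0.005 over all tested genes. The pericyte median was -0.25, with Pdgfrb, the receptor that recruits pericytes, at -0.27 (adjusted p = 0.0556) and the pericyte pump Atp13a5 at -0.25 (adjusted p = 0.0681), and the smooth muscle median was 0.06.

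**Figure D2:**
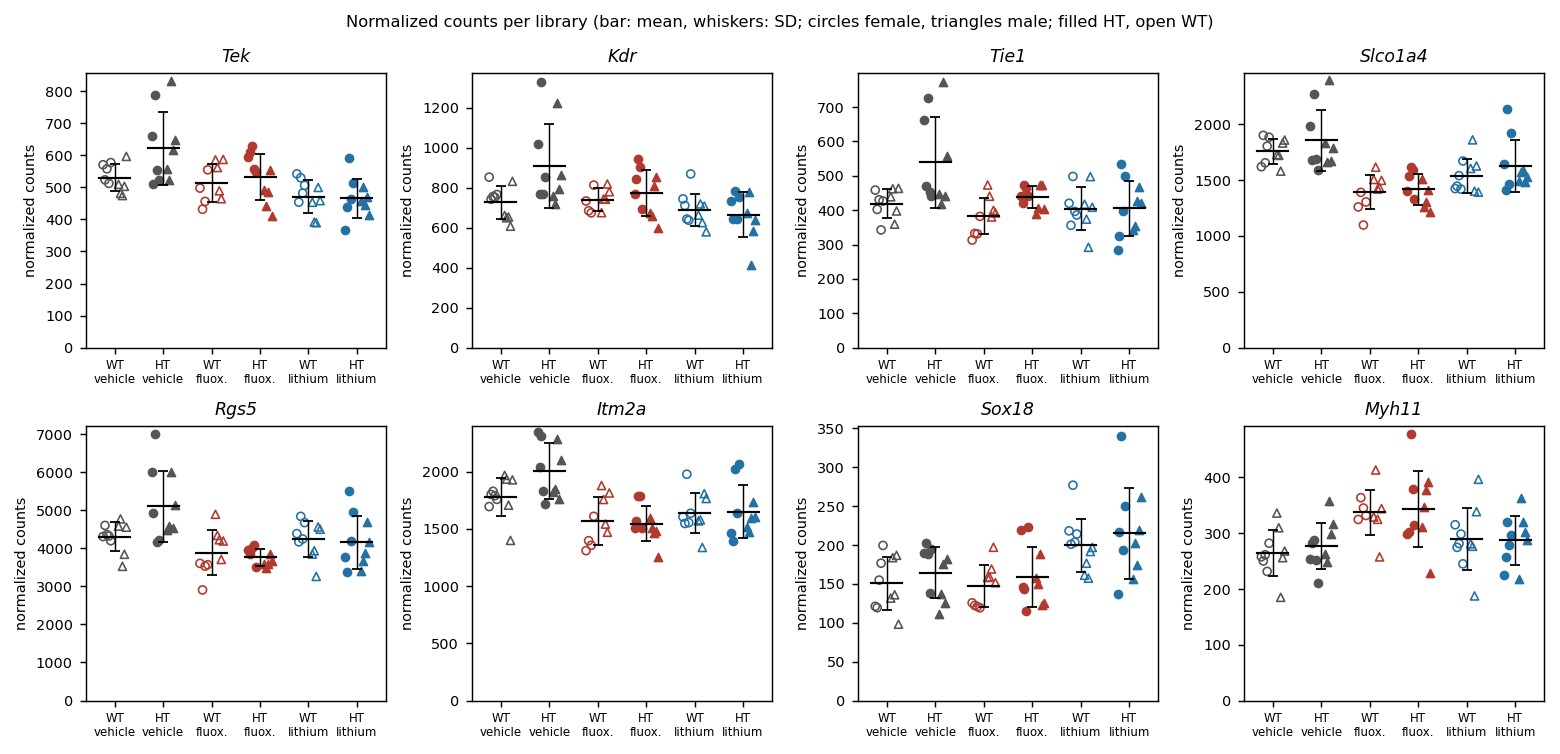
Normalized counts of 8 of the 34 genes in each library (y axes start at 0) by label and drug (x axis), with mean and SD. Tek and Kdr are lower in HT lithium than in HT vehicle pups and Slco1a4 is lower in both fluoxetine groups, while the differences of Sox18 with lithium did not pass.

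The calls moved with the HT vehicle group. Without HT vehicle female 3 and male 3, a comparison added after the values were seen, Tek was the 1 gene still called, at -0.30 (limma adjusted p = 0.0183), and Kdr stood at -0.31 (adjusted p = 0.0562). The endothelial median moved to -0.06 and 17 of 24 stayed below 0. Astrocyte markers were also lower with lithium: 2 of 8 were called, all 8 were below 0, and their summed normalized counts ran from 106833 to 154245 against 126608 to 193472 with vehicle. Microglial sums ran from 9176 to 12123 against 10040 to 14804, with 2 of 8 genes called. Oligodendrocyte markers had a median of -0.60 with 6 of 6 below 0 and none called, and summed counts of 30821 to 126229 against 89797 to 319584. The part of these cells in the result was not tested beyond 1 fit. With the astrocyte level as a covariate Tek remained the 1 call, at -0.25 (adjusted p = 0.0206), and 13 endothelial genes were above 0 and 11 below.

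In WT pups lithium gave no call among the 34 genes by limma, with 1.61% of all genes called (0.991% higher, 0.616% lower). An unadjusted p under 0.05 was found for 5 of the 34 and for 2370 of all 16546, a like share. EdgeR and DESeq2 on the recovered reads also called 0. No gene of the 34 had groups that did not overlap, against 0.187% of all. Sox18 was nearest, with 157 to 277 normalized counts (median 199) against 98.2 to 199.5 with vehicle (median 145), all 10 above the vehicle mean. Its difference was 0.42 (SE 0.128, adjusted p = 0.0763), close to the 0.37 of HT pups, which used other libraries. Slco1a4 stood at -0.20 (SE 0.0664, adjusted p = 0.123) and Mfsd2a at 0.23 (SE 0.0831, adjusted p = 0.166). Tek was at -0.18 (adjusted p = 0.253).

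Whether the lithium difference itself varied with the label was tested as an interaction. None of the 34 genes was called and none of all 16546 was (0%), with 9 of the 34 and 829 of all at an unadjusted p under 0.05 by limma. The value of endoglin, Eng, a co-receptor for TGF-beta ligands, was -0.52 (SE 0.161, adjusted p = 0.890), that of Kdr -0.37 and that of Tek -0.23. The calls in HT and not in WT pups are therefore not shown to be a difference between them.

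Fluoxetine in HT pups gave 15 genes lower and 1 higher of 34, against 29.2% of all tested genes called, 14.6% of them lower and 14.6% higher. The 15 were 12 endothelial genes and the pericyte genes Rgs5, Abcc9 and Higd1b. The gene that rose was Myh11. This comparison lies wholly across the division of the libraries that mt-Atp6 shows, so drug and division cannot be told apart in it. With the division as a term 0 of the 34 were called by limma. That term could be estimated only from WT fluoxetine females against WT fluoxetine males, so the lost calls cannot tell drug from division.

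Slco1a4 ran from 1211 to 1613 normalized counts with fluoxetine (median 1408, n = 10) and from 1589 to 2393 with vehicle (median 1738, n = 10). The ranges met only at their edge. Slco1a4 fell by 0.38 (SE 0.0664, adjusted p = 4.31e-05), to 0.767 of the vehicle level. Rgs5 ran from 3484 to 4085 against 4165 to 7005 and fell by 0.42 (SE 0.0787, adjusted p = 0.000102). Its groups did not overlap, which held for 1 of the 34 genes and for 0.665% of all.

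Itm2a ran from 1256 to 1788 against 1714 to 2344 and fell by 0.37 (SE 0.0704, adjusted p = 0.000113). Ly6a, a surface antigen of endothelium, ran from 240.4 to 359.7 against 285 to 527 and fell by 0.44 (SE 0.0932, adjusted p = 0.000478). Every fluoxetine library lay below the vehicle mean in both genes. Reads of Ly6a and Ly6c1 may be shared with near copies of the Ly6 family, so their values are uncertain.

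Ocln fell by 0.27 (SE 0.0735, adjusted p = 0.00452), from a vehicle median of 290 to 246. Its values were 226 to 297 with fluoxetine and 233 to 395 with vehicle, overlapping at the low end. Esam, an adhesion molecule of the junctions, fell by 0.26 (SE 0.0844, adjusted p = 0.0153), with 9 of 10 libraries below the vehicle mean.

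Abcc9 fell by 0.35 (SE 0.0876, adjusted p = 0.00237), with all 10 libraries below, and the mitochondrial protein Higd1b by 0.36 (SE 0.120, adjusted p = 0.0217), with 9 of 10. The other endothelial genes lower were Mfsd2a, Ly6c1, Slc2a1, Tek, Foxq1, Flt1 (the decoy-like receptor for vascular endothelial growth factor) and Tie1, with differences from -0.34 for Foxq1 to -0.20 for Flt1. Of these the call of Tie1 held in 9 of 20 fits without 1 library and that of Flt1 in 10 of 20. The pericyte genes did not move as 1: Anpep, an aminopeptidase, stood at 0.17, Vtn at 0.10 and Pdgfrb at 0.03, none called.

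Myh11 ran from 229 to 477 with fluoxetine (median 331) and from 211 to 359 with vehicle (median 272). It was above the vehicle mean in 9 of 10 libraries and rose by 0.30 (SE 0.108, adjusted p = 0.0332). Acta2 stood at 0.29 (adjusted p = 0.135) and Tagln at 0.27 (adjusted p = 0.112). All 24 endothelial values were below 0 (median -0.22), all 3 smooth muscle values above (median 0.29), and the median of all genes was -0.01.

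Markers of other cell types were also called, and their part in the result was not tested beyond the fits given. Olfactory bulb markers were all called higher (9 of 9, median 2.72, sums 2725 to 34237 against 1924 to 5167), 4 of 8 astrocyte and 6 of 8 microglial markers lower, and 1 of 6 red cell markers higher. Cortical neuron markers were called lower in 3 of 6, olfactory ensheathing markers higher in 3 of 5, and meningeal fibroblast markers higher in 3 of 12 and lower in 1. Over all genes 14.6% were called higher and 14.6% lower, 29.2% in all. The red cell count is near the share called higher, and the meningeal fibroblast count is near the share called in all. With the bulb level as a covariate 4 of the 34 genes were called. Without HT vehicle female 3 and male 3, 8 were called, and Slco1a4 (-0.30, adjusted p = 0.000643), Rgs5 (-0.33, adjusted p = 0.00138), Itm2a (-0.32, adjusted p = 0.00130) and Ly6a (-0.33, adjusted p = 0.00584) were among them.

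In WT pups fluoxetine gave 1 gene lower and 2 higher of 34, against 14.9% of all genes called (6.08% lower, 8.81% higher). None of the 34 had groups that did not overlap (0.0967% of all). Slco1a4 ran from 1098 to 1616 (median 1421, n = 9) against 1580.5 to 1901 (median 1766, n = 10), with every fluoxetine library below the vehicle mean. It fell by 0.36 (SE 0.0684, adjusted p = 0.00105). Myh11 ran from 258 to 413 against 185 to 336 and rose by 0.36 (SE 0.112, adjusted p = 0.0234), with 8 of 9 libraries above the vehicle mean.

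Tagln ran from 164 to 253 against 129.9 to 223 and rose by 0.39 (SE 0.137, adjusted p = 0.0454), with all 9 above. That call of Tagln held in 7 of 19 fits that each left out 1 library. Acta2 stood at 0.42 (SE 0.152, adjusted p = 0.0532). The 3 contractile genes lay near the same value, as in the HT pups, whose vehicle libraries were others. Itm2a was at -0.20 (adjusted p = 0.0519) and Rgs5 at -0.18 (adjusted p = 0.126). Bulb markers were again called higher in 9 of 9, as were 4 of 6 red cell markers (median 0.64) and 3 of 5 olfactory ensheathing markers, while 4 of 8 microglial markers were called lower. With the bulb level as a covariate none of the 34 was called by limma, and none was with the division as a term. In that last fit the drug difference rests on the WT fluoxetine males.

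WT males are compared within the 45 libraries on 1 side of the division. No gene of all 16546 was called by limma there (0%), while 800 of all and 3 of the 34 had an unadjusted p under 0.05, and edgeR and DESeq2 called 0 of the 34. None of the 34 had groups apart, against 1.18% of all. Slco1a4 in WT fluoxetine males was at 1421 to 1616 (median 1498, n = 5) and in WT vehicle males at 1580.5 to 1859 (median 1728, n = 5), a difference of -0.22 (SE 0.0939, adjusted p = 0.942). Myh11 was at 0.31, Acta2 at 0.42 and Tagln at 0.35, all uncalled. The endothelial median was -0.01, with 10 genes above 0 and 14 below.

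WT females, compared across the division, had Slco1a4, Itm2a and Rgs5 lower, against 19.8% of all genes called (8.79% lower, 11% higher). Slco1a4 fell by 0.49 (SE 0.0996, adjusted p = 0.00109), Itm2a by 0.33 (SE 0.106, adjusted p = 0.0236) and Rgs5 by 0.36 (SE 0.118, adjusted p = 0.0251). The 4 fluoxetine libraries did not overlap the 5 vehicle ones in these 3 genes, but this held for 10 of the 34 and for 20.6% of all genes. The fluoxetine difference between the sexes was called for none of the 34, against 0.0846% of all (0.0242% higher, 0.0604% lower), and 2 of the 34 and 1992 of all 16546 had an unadjusted p under 0.05. Its nearest values were those of Rgs5 (-0.37, SE 0.162, adjusted p = 0.372), the sialomucin Emcn (-0.49, SE 0.222, adjusted p = 0.382) and Sox18 (-0.52, adjusted p = 0.423). The fluoxetine difference between HT and WT pups was also called for none of the 34, against 0.0302% of all, with 2 of 34 and 454 of all 16546 at an unadjusted p under 0.05. Nearest were Rgs5 at -0.25, Ly6a at -0.28 and Higd1b at -0.34, each with a limma adjusted p = 0.9996.

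**Figure D3:**
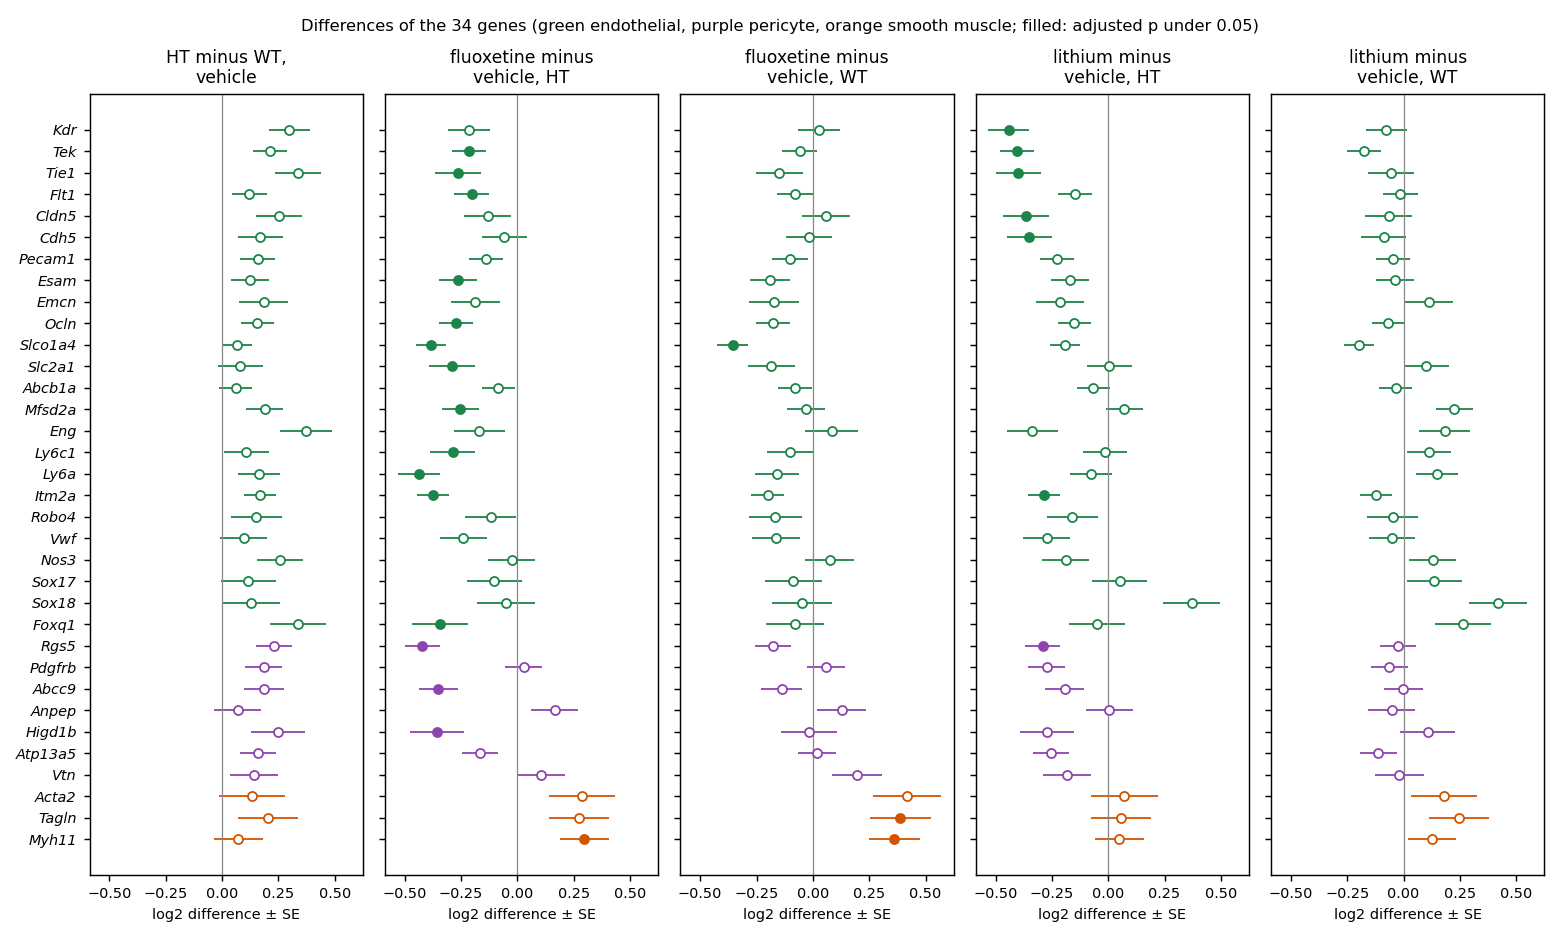
Log2 differences with their SE (x axis) of the 34 genes (y axis) in 5 comparisons. Filled points passed the adjusted threshold: 15 lower and 1 higher for fluoxetine in HT pups, 1 lower and 2 higher in WT pups, and 7 lower for lithium in HT pups.

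Between the labels under vehicle, no gene was called by limma among the 34 or among all genes (0%), while 15 of the 34 and 1618 of all had an unadjusted p under 0.05. EdgeR and DESeq2 also called 0 of the 34, and in none did the groups fail to overlap (0.0121% of all genes). All 34 values were above 0 in HT pups, with medians of 0.16 (endothelial), 0.18 (pericyte) and 0.13 (smooth muscle), beside 0.0003 over all genes. Tie1 stood at 0.34 (SE 0.102, adjusted p = 0.340), Eng at 0.37 (SE 0.114, adjusted p = 0.345) and Kdr at 0.30 (SE 0.0915, adjusted p = 0.345). Without HT vehicle female 3 and male 3 the endothelial median was 0.07, with 21 of 24 above 0, and 4 of the 34 at an unadjusted p under 0.05. Astrocyte and microglial markers had medians of 0.14 and 0.15, and with the astrocyte level as a covariate 19 of the 34 were above 0.

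Under fluoxetine, 0 of the 34 were called between the labels (0.0423% of all genes, 0.00604% higher and 0.0363% lower). An unadjusted p under 0.05 by limma was found for 1 of the 34 and 1017 of all, and 24 of the 34 were above 0. Tie1 was at 0.22 (SE 0.105, adjusted p = 0.800), Pdgfrb at 0.16 and Robo4 at 0.20. None had groups that did not overlap, against 0.0121% of all. Within females, both on 1 side of the division, 32 of 34 were above 0 and none was called (0% of all genes), while 7 of the 34 and 1340 of all had an unadjusted p under 0.05, with Emcn at 0.44 (SE 0.162, adjusted p = 0.575), Tie1 at 0.40 and Pecam1 at 0.29. Tie1 ran from 313 to 382 in the 4 WT females and did not overlap the HT females, in which 1.01% of all genes did not overlap. Under lithium, again 0 of 34 were called (0.00604% of all), and 21 were below 0. None of the 34 had an unadjusted p under 0.05, against 641 of all. Emcn was at -0.14, Eng at -0.15 and Vwf at -0.13 (limma adjusted p = 0.9998 each). Between the sexes under vehicle none of the 34 was called, against 0.0846% of all genes (0.0484% higher in females, 0.0363% lower). None of the 34 had an unadjusted p under 0.05, against 326 of all, and none had groups apart (0.0665% of all). EdgeR and DESeq2 called 0 of the 34 in each of these comparisons of labels and of sexes. Foxq1 was nearest, at 0.25 higher in females (SE 0.125, limma adjusted p = 0.99997), followed by Kdr at 0.15 and Sox18 at 0.21.

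The 3 vehicle-based comparisons in HT pups share their 10 vehicle libraries, so their values move together by construction and are set side by side here only for that reason. Tek stood at 0.21 for the label, -0.22 for fluoxetine and -0.41 for lithium, and Kdr at 0.30, -0.21 and -0.44. For Slco1a4 these values were 0.07, -0.38 and -0.19. No difference between the 2 drugs was tested.

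After the mean of each group was removed, the genes moved together across the 59 libraries. Over 276 pairs of endothelial genes the median Pearson r was 0.56, over 21 pericyte pairs 0.40 and over the 3 smooth muscle pairs 0.87. These are descriptions, since all points share library depth and tissue make-up. HT vehicle female 3 and male 3, highest in endothelial and pericyte levels at once, are among the 59, and no r was computed without them. Rgs5 had r = 0.83 with the mean of the 24 endothelial genes and 0.66 with that of the other 6 pericyte genes. Abcc9 (0.69 against 0.60) and Pdgfrb (0.64 against 0.63) were also higher with the endothelial mean. Anpep, Higd1b, Atp13a5 and Vtn were higher with the pericyte mean. The means hold 24 and 6 genes, so these r values cannot show which class a gene follows more. The endothelial genes least like their class were Kdr (0.42), Sox18 (0.45) and Vwf (0.49), the clotting factor carrier, and the closest was Tie1 (0.89).

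**Figure D4:**
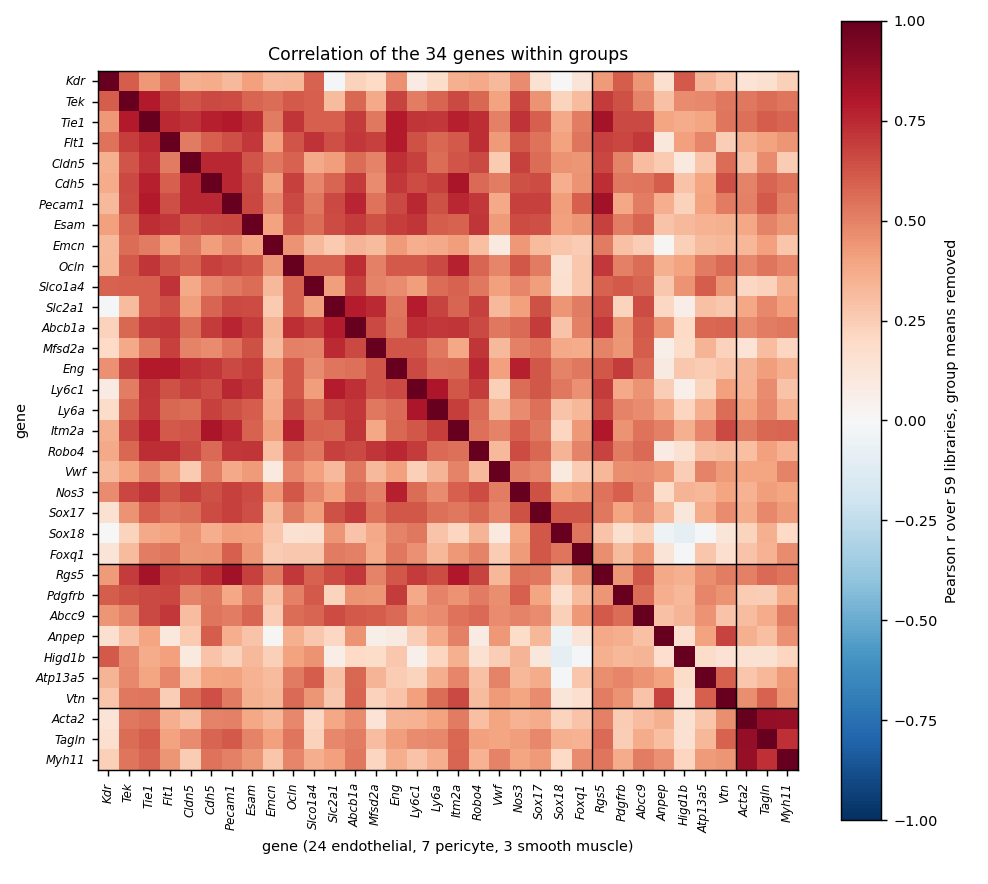
Pearson r of log2 normalized counts between each pair of the 34 genes over 59 libraries with group means removed (both axes list the genes, lines part the classes). The smooth muscle block is strongest (median 0.87), and the Kdr, Sox18 and Higd1b rows are pale.

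The endothelial level within groups went with other endothelial genes (r = 0.96), with astrocyte markers (0.91), microglial markers (0.86) and the pericyte level (0.78), and hardly with red cell markers (0.03), bulb markers (-0.07) or total reads (-0.16). Among the genes outside the list most like the endothelial mean were Pbxip1 (r = 0.87), Acsbg1 (0.87), Glul (0.86), Acot11 (0.86) and Zcchc24 (0.86). Glul, the glutamine synthetase, is known from astrocytes. Among those most like the pericyte mean were Vcl (0.83), Plekhg2 (0.81), Slc22a8 (0.80), Msn (0.80) and Axl (0.80). Most like the smooth muscle mean were elastin, Eln (0.79), Myl9 (0.78), Steap3 (0.70), Fbln5 (0.69), Tpm2 (0.69) and Slfn5 (0.66).

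**Figure D5:**
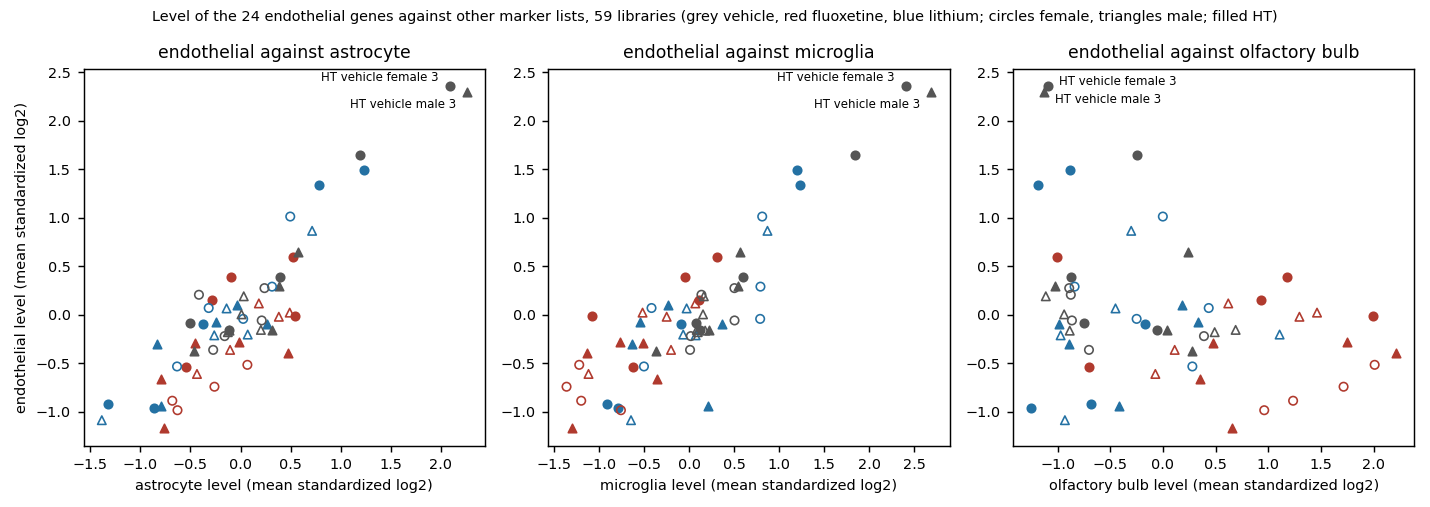
Endothelial level (y axis) against astrocyte, microglial and olfactory bulb levels (x axes, all mean standardized log2) in 59 libraries. The endothelial level follows the astrocyte and microglial levels, and no such line is seen against the bulb level. HT vehicle female 3 and male 3 lie highest in all 3 panels.

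Other vascular genes, in lists of their own, were read beside the 34. Of 30 further genes listed as endothelial, 12 were lower with fluoxetine in HT pups (14.6% of all genes were) and none higher, led by the amino acid transporter Slc7a5 at -0.40 (SE 0.0748, limma adjusted p = 0.000107), the lipid receptor S1pr1 at -0.33, the thyroid hormone carrier Slco1c1 at -0.39 and Clec14a at -0.41. Whether reads of these 30 genes came from endothelial cells alone was not tested. With lithium in HT pups 9 of the 30 were lower (1.57% of all genes were) and none higher, led by the lactate transporter Slc16a1 at -0.40 (SE 0.0814, adjusted p = 0.00287), Cd93 at -0.60, Clec14a at -0.40 and the phosphatase Ptprb at -0.33. HT vehicle female 3 and male 3 had the highest levels of this list (2.28 and 2.06). None of these other vascular lists was refitted without them. Slc16a1 was the 1 of the 30 also lower with lithium in WT pups, at -0.37 (SE 0.0814, adjusted p = 0.00826).

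Of 17 other mural genes none was called in HT pups, where 29.2% of all genes were called with fluoxetine and 2.84% with lithium. With fluoxetine in WT pups 2 of the 17 were higher by limma, the contractile genes Cnn1 at 0.85 (SE 0.221, adjusted p = 0.00892) and Myl9 at 0.45 (SE 0.124, adjusted p = 0.0130). That count is near the share of all genes called higher there, 8.81%. Of 18 ligands and partners of the receptors, 2 rose and 3 fell with fluoxetine in HT pups, a share near the 29.2% of all genes called there. Tgfb3 rose by 0.33 and Nrp2 by 0.42, while the endothelial receptor Acvrl1 fell by 0.31 and the growth factor Pdgfa by 0.24. With lithium in HT pups Tgfbr2 fell by 0.25 and Unc5b by 0.49.

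Of 14 genes of Wnt signalling and barrier induction, 5 fell and 1 rose with fluoxetine in HT pups, where 14.6% of all genes fell and 14.6% rose, with Tspan12 at -0.33, Tnfrsf19 at -0.25, the norrin receptor Fzd4 at -0.36 and the ligand Wnt7a at 0.62. With lithium in HT pups 3 fell, against 1.57% of all genes, namely the Wnt effector Lef1 by 0.65 (SE 0.121, adjusted p = 0.000944), Ndp (norrin) by 0.33 and Ctnnb1 (beta-catenin) by 0.14. This list too was not refitted without HT vehicle female 3 and male 3. The same 14.6% of all genes lower is the share to set beside both lists that follow. Of 8 arterial genes 2 fell with fluoxetine in HT pups, Gkn3 by 0.79 and Hey1 by 0.17. Of 7 venous and activated genes 3 fell there, with Ackr1 at -0.20, Vcam1 at -0.20 and Lrg1 at -0.45, and Nr2f2 rose by 0.39. None of either list was called with lithium, with which 2.84% of all genes were called in HT pups and 1.61% in WT pups.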

How the data were processed

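The 34 genes and all lists were chosen with earlier results of these data known. Libraries came from a poly(A) stranded kit, per the labels' protocols. Salmon 0.11.2, R 3.6.0, DESeq2 1.19.11 and GRCm38 are named in the submitters' processing notes. Per the labels and the file's name and values, the authors deposited counts divided by a size factor (0.850 to 1.203) for each library, a normalized signal per gene. This makes levels relative to the whole library. Multiplied by that factor, 100% of values lay within 0.01 of a whole number, which gave back the read counts. Strand-specific counting is not given in the sources used here.

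Of 18088 genes 18077 matched a symbol and 11 did not. Limma 3.58.1 in R 4.3.3 (trend and robust) fitted 12 group means to log2(normalized count + 1) of the 16546 genes with a mean of at least 10, and 14 comparisons were drawn with Benjamini-Hochberg adjustment over all genes and the sexes averaged with equal weight. Differences are on that log2 scale. As alternatives, edgeR 4.0.16 and DESeq2 1.42.0 were run on the recovered reads, along with other normalization, filters, pseudocounts, covariates, a fit to the compared groups alone, the replicate number as a block and each library left out. The scripts were tested on simulated data. Full statistics were given for up to 8 called members of each comparison by smallest p, at most 5 of a class, or the 3 with the smallest p where fewer than 3 were called, for up to 4 called genes of each vascular list in the comparisons with 5 or more member calls, and for the 6 genes most alike to each class with predicted genes left out; 1 result under this rule is not reported here. Other genes named were chosen after their values were seen. Within each group of 1 label, drug and sex no library was a copy of another, and pairs from different groups were not checked for copies.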

Additional observations from a re-analysis of the deposited data

Results flagged for a closer look

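In groups of 4 or 5 libraries of 1 label, drug and sex, 24 of 444 values of a gene or class level lay farther from the rest of their group than Dixon's critical value allows. Only such values are given here, and a library can be the highest for other genes too. Chance flags about 1 in 20 groups. HT vehicle male 3 was flagged at the top of its group for 7 genes, with 1224 normalized counts of Kdr, 2487 of Flt1, 2393 of Slco1a4, 1698 of Eng, 635.9 of Nos3, 1303 of Pdgfrb and 96.31 of Higd1b. HT vehicle female 3 was flagged at the top of its group for the pericyte genes Pdgfrb (1209), Abcc9 (514.4), Atp13a5 (601.9) and Vtn (2195). In WT vehicle pups Kdr stood out at 852.9 in female 1 and 831.8 in male 5, which also stood out for Tek (596.8). Cldn5 stood out at 786.1 in HT lithium male 1, and Pecam1 (524.1) and Sox17 (104.3) in HT fluoxetine male 5. WT lithium female 3 stood out for Itm2a (1979) and Sox18 (277.0). Vwf did so at 1273 in HT vehicle female 1, Sox17 at 144.7 in WT fluoxetine male 4, Sox18 at 138.9 in HT vehicle female 4 and Rgs5 at 2906 in WT fluoxetine female 2. The smooth muscle level of WT lithium female 5 stood out at -0.785.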

How the results depend on the processing

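The count of the 34 genes called moved by over 1.5 times under these settings, and the cause was not tested. For fluoxetine in HT pups the 16 calls became 6 when only the compared groups were fitted, 4 with olfactory bulb markers as a covariate, 8 without the 5 libraries high in striatal genes, 8 without HT vehicle female 3 and male 3 (which are 2 of those 5), and 0 with the division of the fluoxetine libraries as a term. That last fit also turned the sign of Rgs5 (0.005), Esam (0.0038), Ly6c1 (0.124), Tek (0.0469) and Tie1 (0.0603). Its division term rests on WT fluoxetine females against WT fluoxetine males, so neither the 0 nor these signs can tell drug from division. For fluoxetine in WT pups 3 became 8 with the compared groups alone, 0 with the bulb covariate, 0 with the division, 5 by DESeq2 and 9 with the astrocyte covariate. For lithium in HT pups 7 became 1 with the compared groups alone, 1 without the striatal libraries, 1 without HT vehicle female 3 and male 3, and 1 with the astrocyte covariate. For lithium in WT pups 0 became 2, 1 and 3 with the compared groups alone, the bulb covariate and the astrocyte covariate. In WT females 3 became 6 after quantile normalization, 10 with the compared groups alone, 0 with the bulb covariate and 8 with the astrocyte covariate. The astrocyte covariate and the removal of HT vehicle female 3 and male 3 were chosen after seeing the data.

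Leaving out 1 library at a time gave 7 to 17 calls for fluoxetine in HT pups (7 without HT vehicle female 3), 1 to 4 in WT pups (1 without WT fluoxetine male 2), and 2 to 11 for lithium in HT pups (2 without HT lithium female 2, HT vehicle female 3 or HT vehicle male 3, and 11 without HT lithium female 3). It gave 0 to 1 for lithium in WT pups and 2 to 3 in WT females given fluoxetine. With the replicate number as a block the counts were the same, 16, 3, 7 and 0. No pairing by number was seen in the mean: deviations of same-numbered libraries had a mean r of 0.00848, beside -0.00182 for different numbers. Single same-numbered pairs ran from -0.472 to 0.614, and 16 of 59 libraries correlated best with their own number. These values do not show that no libraries were paired. The division term could not be fitted within 1 sex. Every library had at least 25088446 reads, and no gene of the 34 was at 0 in any.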
